A study of Mus musculus with 4 samples.

Results

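The cells described here were the tdTomato-labelled cells of the dorsal telencephalic midline of mouse embryos at E14.5, compared between a gof and a control library. A cell barcode was a member if it had at least 1000 genes, at most 10% of its UMIs in mitochondrial genes and at least 2 UMIs of the tdTomato feature. A UMI is a unique molecular tag, so that a UMI count is a count of captured RNA molecules. By this rule 1259 of 7069 kept control barcodes (17.8%, exact 95% Clopper-Pearson interval 16.9 to 18.7) and 1161 of 5572 kept gof barcodes (20.8%, 19.8 to 21.9) were members, 2420 of the 12641 kept E14.5 barcodes and of the 27196 kept barcodes of all 4 libraries. The cells were chosen by their tdTomato UMIs, so the tdTomato level is given only as a description.

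Dissected tissue around the cortical hem was profiled at E11.5 and at E14.5 with droplet-based sequencing of the RNA of single cells, with 1 library per age and genotype. The control genotype was Lmx1aCre::Ai9 and the other was Lmx1aCre::Ai9::b-cat gof, so that both carried the Lmx1a-driven Cre and the Ai9 reporter and differed in the b-cat gof allele. Each E14.5 library came from a pool of 3 male embryos, both hemispheres, and each E11.5 library from a pool of 5. The series title describes the allele as keeping canonical Wnt signalling switched on in hem progenitors, and the comparison asks how the Lmx1a lineage of the hem differed under that condition. With 1 library a side there was no test, no replicate check and no p-value: every difference below is one between 2 libraries, and intervals cover counting error only. The label marks cells that had Cre activity in themselves or an ancestor, whatever they had become, and embryos cannot be told apart within a pool.

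The cortical hem is a strip of neuroepithelium along the medial cortical margin and a source of Wnt and BMP ligands. Its offspring include Cajal-Retzius neurons and, beside it, the choroid plexus epithelium. In canonical Wnt signalling, beta-catenin escapes breakdown, enters the nucleus and acts with TCF and LEF factors on target genes. Genes of that core response, and the standard markers of hem, choroid plexus and Cajal-Retzius cells, were set aside in choosing the genes named below.

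Lmx1a, the gene whose regulatory elements drive the Cre, checked the label. It was read at 199 CPM (its summed UMI count scaled to the same total in each library) in labelled and 6.39 CPM in control cells with 0 tdTomato UMIs (tdTomato-0 cells), and at 64.3 and 2.46 CPM in the gof library, 31.2-fold and 26.1-fold more in the labelled cells. tdTomato itself summed to 235 CPM in the control and 269 CPM in the gof library, where labelled cells had 4 and 5 of its UMIs at the median. At the threshold, 362 control and 254 gof barcodes had exactly 2 tdTomato UMIs and were members, and 988 and 787 had exactly 1 and were not. Barcodes gated as non-neural, by endothelial, pericyte, mesenchymal and microglial genes, were labelled in 12 of 135 cases (8.89%) in control and 15 of 157 (9.55%) in gof. These 12 and 15 barcodes had medians of 25460 and 31034 UMIs, against 11264 and 16388 over all non-neural barcodes, and carried neural lineage RNA as well, with the Cajal-Retzius gene Trp73 at 226 CPM in the control ones and the choroid gene Ttr at 2185 CPM in the gof ones, so their share is not a rate of labelling in non-neural cells. Ctnnb1, the beta-catenin gene itself, stood at 335 CPM in the control and 371 CPM in the gof labelled cells; counts from the 3' end of the RNA do not check the allele.

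The labelled cells summed to 24991806 UMIs in control and 24665009 in gof, with medians of 14718 and 16631 UMIs per cell and 3.49% and 2.67% of UMIs in mitochondrial genes. The E14.5 libraries shared 12 cell barcodes, and any 2 of the 4 libraries shared 82. In summed counts, fewer cells of a type and less RNA of a gene per cell cannot be told apart. Marker gates described the makeup. A choroid gate (at least 3 UMIs over markers such as Otx2, Clic6 and Kcne2) held 38.0% of control and 52.9% of gof labelled cells, and a Cajal-Retzius gate held 59.5% and 41.9%. The choroid gate did not hold like cells on both sides: within it the choroid transport protein gene Ttr stood at 26967 and 3924 CPM, control first, and Kcne2 at 236 and 4.46 CPM, while Clic6 stood at 262 and 247 CPM. A stricter rule, chosen after the data were seen (a Trp73 UMI, at least 3 UMIs of Kcne2 or Htr2c, or Ttr at 10000 CPM or more), held 44.2% of control and 8.27% of gof labelled cells. Cells with more UMIs of pan-neuronal than of progenitor genes, called the neuron side here, were 50.8% and 49.5%. The neuron side did not hold like cells in both libraries either: on it Trp73 stood at 164 and 9.81 CPM, the Cajal-Retzius gene Reln at 1890.0 and 115 CPM and Tubb3 at 1303 and 2296 CPM, and choroid-gate cells on it were 7.55% of control and 25.8% of gof labelled cells. Ratios on each side, given below beside the pooled ones, are differences between such unlike sides, and the part of their makeup was not tested.

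Of 10205 genes with at least 10 CPM in either library, 650 were higher in gof (6.37%) and 1551 were lower (15.2%). A gene counts as called here if it differed by at least 1.5-fold on the log2 scale with a pseudocount of 1 CPM and its exact 95% Poisson intervals were separate. The median log2 ratio of gof over control over these genes was -0.12, and ratios below are to be read against that value. With ratios shifted by it, 849 genes were higher and 1148 lower, so that the share of higher among called genes went from 29.5% to 42.5%. Without the strictly marked choroid and Cajal-Retzius cells 667 genes were higher and 1291 lower. A set of cells calls a gene only if it reaches 10 CPM there. Of the 650 higher genes, 319 (49.1%) were higher on both the neuron side and the other side, as were 700 (45.1%) of the 1551 lower genes in their direction. Called genes on the neuron side alone were 8.58% higher and 15% lower, and on the other side 6.24% higher and 16.9% lower.

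The cells with 0 tdTomato UMIs came from the same libraries and were compared in the same way. There 2.14% of genes were higher in gof and 7.27% lower. Of the 650 genes higher in labelled cells, 115 were also called higher there, 17.7%, and 45 were called lower. For the 1551 lower genes, 398 were also lower, 25.7%, and 9 were higher. At E11.5, in another pair of libraries with 4.9% of genes higher and 5.62% lower in labelled cells, 136 of the 650 genes were higher, 20.9%, and 165 of the 1551 were lower, 10.6%.

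Without the strictly marked choroid and Cajal-Retzius cells, 557 in control and 96 in gof, all of the 15 genes with the highest ratios were still called higher. Their log2 ratios were then 3.27 to 5.82. These genes, among those of at least 50 CPM, were Cryba2, Wnt6, Nfam1, Mybpc1, Pglyrp1, Fgf17, Ism1, Kcnmb2, Prcd, Tex15, Mylk, Chodl, Col16a1, Bcas1 and Prkcb. Wnt6, a secreted Wnt ligand, stood at 0.8003 CPM (0.489 to 1.24) in the control library against 89.0 CPM (85.3 to 92.8) in the gof one, a log2 ratio of 5.64. On the neuron side Wnt6 stood at 1.58 and 125 CPM (5.61), control first, and outside it at 0.147 and 61.7 CPM (5.77). These control values are near or below the pseudocount of 1 CPM, which limits both ratios. Cryba2, which encodes a beta-crystallin, a protein family best known from the eye lens, had 3 UMIs in control and 1436 in gof labelled cells. The ratio of its CPM was 485, with an exact interval of 166 to 2355. Mybpc1, a myosin-binding protein of slow skeletal muscle, was the most abundant of the 15 in gof, at 14.9 CPM (13.4 to 16.5) in the control library against 475 CPM (466 to 484) in the gof one, a log2 ratio of 4.91. In labelled cells of neither the choroid nor the Cajal-Retzius gate, Mybpc1 was much less far apart, at 40.3 and 117 CPM, control first. Wnt6 stood at 0 and 22.2 CPM in those cells. Fgf17, an FGF family ligand, stood at 2.68 CPM (2.08 to 3.40) in the control library against 76.1 CPM (72.7 to 79.6) in the gof one, 4.39. It stood at 0.438 and 13.2 CPM on the neuron side (3.30), control first, and at 4.57 and 123 CPM outside it (4.48). The pseudocount of 1 CPM lowers the ratio on the neuron side more, so the ratios of the sides do not show where Fgf17 was further apart.

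**Figure D1:**
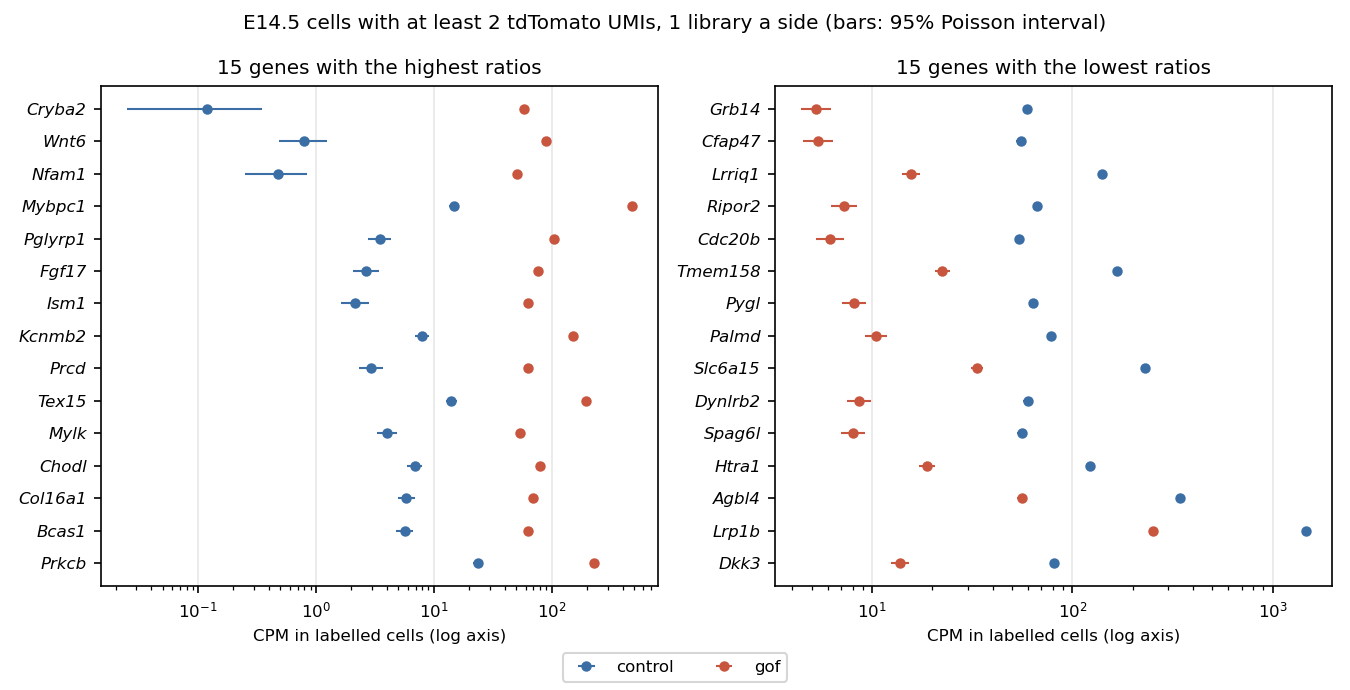
Summed CPM of the 15 genes with the highest and the 15 with the lowest ratios in E14.5 labelled cells on a log axis, with control in blue and gof in red and exact 95% Poisson intervals as bars. No interval of a gene in one library meets its interval in the other, since the genes were chosen for their ratios.

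The other genes at the top code for channel subunits, kinases, receptors and secreted proteins, and their CPM is given with control first, here and below. Kcnmb2, a regulatory subunit of calcium-activated potassium channels, stood at 7.92 and 152 CPM, with 4.10. Prkcb, protein kinase C beta, stood at 23.6 and 228 CPM, with 3.22. Mylk, myosin light chain kinase, stood at 4.04 and 53.4 CPM. Tex15, known for its part in male germ cells, stood at 14.04 and 196 CPM. Nfam1 and Pglyrp1 are known from immune cells, a membrane receptor and a peptidoglycan-binding protein, and stood at 0.480 and 50.5 CPM and 3.48 and 105 CPM. In labelled cells no gene of the microglial or pericyte lists reached 10 CPM in either library, while 5 endothelial, 6 mesenchymal and 5 erythroid genes did. Microglial list genes summed to 34.1 and 29.6 CPM. Whether other cells contributed RNA of Nfam1 and Pglyrp1 was not tested. Ism1, a secreted protein, stood at 2.16 and 62.6 CPM. Chodl, a membrane lectin known from motor neurons, stood at 6.88 and 79.6 CPM; its ratio was 5.77 on the neuron side and 0.80 outside it. Col16a1, a collagen, and Mylk were likewise further apart on the neuron side, at 4.34 and 4.05 against 1.24 and 1.48.

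**Figure D2:**
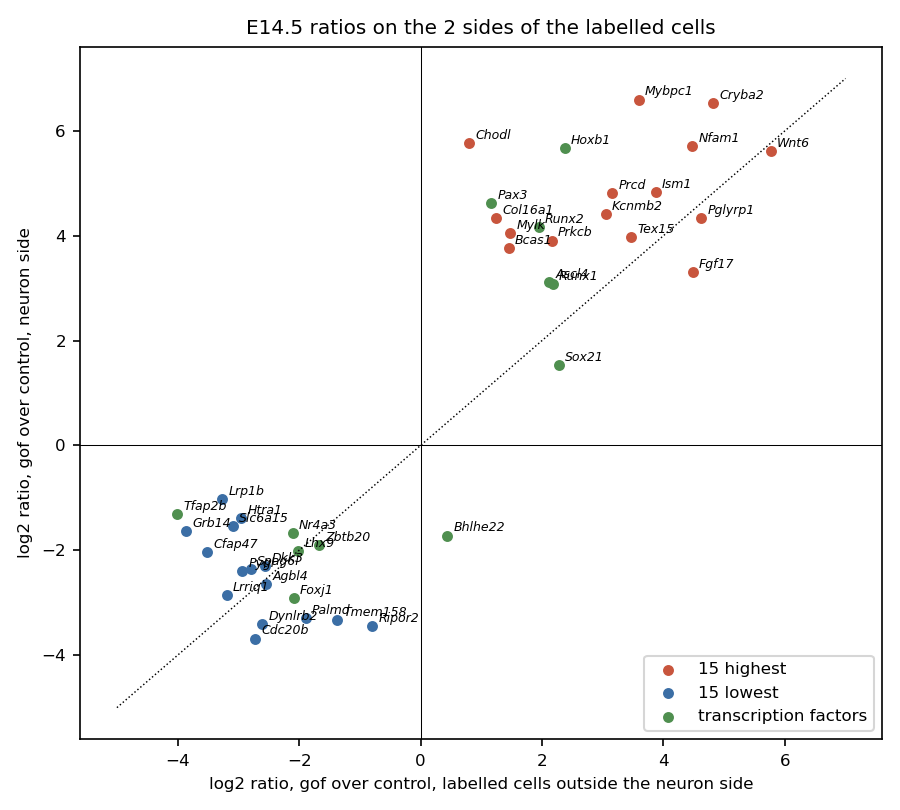
Log2 ratio of gof over control on the neuron side of the E14.5 labelled cells against that outside it, for the 15 highest (red) and 15 lowest (blue) genes and 12 transcription factor genes (green); the dotted line marks equal ratios. Of these genes Bhlhe22 alone lay on opposite sides of 0, at -1.72 on the neuron side and 0.44 outside it.

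Promoters of the genes at the top and bottom were searched for the core letters of TCF and LEF, the factors with which beta-catenin is known to act. The motifs were CTTTGAA and CTTTGAT, read on both strands in the 250 bases before each RefSeq transcript start (GRCm38.p6). Of the 15 highest genes, 11 matched, with 13 promoters, and 1 promoter held a motif (7.69%). Of the 15 lowest genes, 10 matched, with 12 promoters, and 3 held one (25%). Among all 32851 promoters of that length the share was 7.48%, among promoters of the genes read 5.06%, among those of the higher genes 6.62% and of the lower genes 4.41%. These matches are descriptions of letters, not sites of binding, and the window leaves out more distant sequence. The promoters printed here show the contrast between a large ratio and the letters, with any motif in capitals: Wnt6 (chr1:74771642-74771891, plus strand) and Mybpc1 (chr10:88605153-88605402, minus strand) with none, Chodl (chr16:78930698-78930947, plus strand) with TTCAAAG, the reverse complement of CTTTGAA, 139 bases before the start, and the lower gene Lrriq1 (chr10:103236323-103236572, minus strand) with ATCAAAG, the reverse complement of CTTTGAT, 85 bases before it.
Wnt6: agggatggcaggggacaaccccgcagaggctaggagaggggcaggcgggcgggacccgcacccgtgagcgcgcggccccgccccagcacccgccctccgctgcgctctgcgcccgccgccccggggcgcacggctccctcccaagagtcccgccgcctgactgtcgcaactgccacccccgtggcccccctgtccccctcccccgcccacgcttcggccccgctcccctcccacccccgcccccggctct
Mybpc1: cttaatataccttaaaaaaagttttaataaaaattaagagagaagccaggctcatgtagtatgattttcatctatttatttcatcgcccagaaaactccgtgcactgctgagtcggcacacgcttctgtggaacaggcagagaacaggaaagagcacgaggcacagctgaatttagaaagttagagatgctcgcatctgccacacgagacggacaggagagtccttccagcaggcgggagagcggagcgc
Chodl: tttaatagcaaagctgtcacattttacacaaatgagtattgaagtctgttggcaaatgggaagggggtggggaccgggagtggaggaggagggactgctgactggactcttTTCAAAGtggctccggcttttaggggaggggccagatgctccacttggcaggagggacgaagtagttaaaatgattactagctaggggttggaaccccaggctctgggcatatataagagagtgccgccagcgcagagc
Lrriq1: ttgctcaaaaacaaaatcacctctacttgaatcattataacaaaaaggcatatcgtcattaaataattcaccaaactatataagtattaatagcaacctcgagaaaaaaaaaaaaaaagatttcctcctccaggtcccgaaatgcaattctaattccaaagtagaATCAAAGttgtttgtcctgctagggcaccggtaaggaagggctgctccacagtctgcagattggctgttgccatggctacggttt

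Of the 15 highest genes, 13 stayed under 10 CPM in tdTomato-0 cells of both libraries. In tdTomato-0 cells the log2 ratio of Wnt6 was 1.46, with 0.26 and 2.48 CPM, and that of Cryba2 0.66. Mybpc1 went the other way: its level in tdTomato-0 cells was 34.0 CPM in the control library against 8.62 CPM in the gof one, -1.86. The other gene that reached it was Prkcb, which was higher there too (0.90). In labelled cells of E11.5, 8 of the 15 reached 10 CPM and 7 of these were called higher as well, among them Mybpc1 (5.93), Wnt6 (3.74) and Kcnmb2 (2.30). Fgf17 was not called at E11.5, at 68.6 and 83.1 CPM (0.27).

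**Figure D3:**
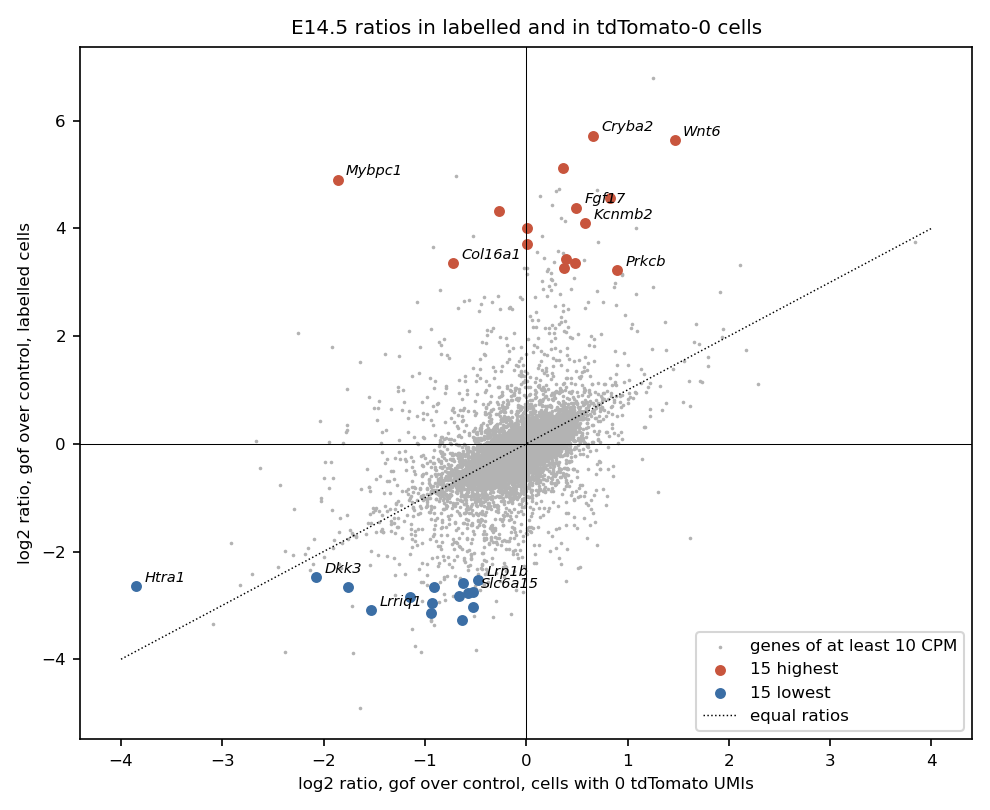
Log2 ratio of gof over control in E14.5 labelled cells against that in E14.5 cells with 0 tdTomato UMIs, both from the same 2 libraries, for genes of at least 10 CPM in labelled cells (grey), the 15 highest (red) and the 15 lowest (blue). The dotted line marks equal ratios; Mybpc1 lies at 4.91 in labelled and -1.86 in tdTomato-0 cells, and Htra1 at -2.64 and -3.85.

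Cell by cell, after thinning each barcode to 3000 UMIs, a Mybpc1 UMI was found in 46.7% of gof (43.8 to 49.6) and 3.26% of control labelled cells (2.35 to 4.40). Unthinned, the shares were 57.6% and 11.1%. In barcodes gated as non-neural, with median depths of 16388 and 11264 UMIs, the thinned shares were 3.31% in gof and 1.61% in control. A Wnt6 UMI was found in 21.5% of gof (19.2 to 24.0) and 0.159% of control labelled cells, 44.4% and 1.35% unthinned. Non-neural gof barcodes held a Wnt6 UMI in 9.27% (5.16 to 15.1) after thinning, above the 0.565% of tdTomato-0 gof cells. A Cryba2 UMI was found in 6.41% of gof labelled cells and 1.32% of non-neural ones. Of the 15 highest genes together, none was detected in 78.8% of control and 32.0% of gof labelled cells, 3 to 5 of them in 0.239% and 28.9%, and 6 or more in 0% (upper limit 0.293%) and 18.98%. In tdTomato-0 gof cells, 88.2% had none.

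For each of the 15 highest genes, the share of gof cells with a UMI was above its values at 0 and 1 tdTomato UMIs in every class of 2 or more. These genes were chosen for their ratios in cells with at least 2 tdTomato UMIs, so this follows in part from the choice and is only a description. The share was highest at 10 or more tdTomato UMIs for 7 of them, at 5 to 9 for 7 and at 3 to 4 for 1, so it did not go up throughout for all. For Mybpc1 it was 1.43% at 0, 2.61% at 1, 17.7% at 2, 42.6% at 3 to 4, 56.6% at 5 to 9 and 67.8% at 10 or more tdTomato UMIs, each cell thinned to 3000 UMIs. For Mybpc1 in gof, barcodes with 1 tdTomato UMI, just outside the rule, were thus nearer to the cells with 0 than to those with 2. Other genes varied between 0 and 1: in gof Prkcb stood at 3.54% and 7.82% and Chodl at 1.43% and 0.782%. In control Lmx1a stood at 1.79% and 9.67%, so the class of 1 was not like the cells with 0 for every gene. For Fgf17 the highest share, 25.0%, was at 10 or more. Prkcb stood at 50.8% at 5 to 9 and 46.1% at 10 or more, and Wnt6 at 27.6% in both. In the control library the share for Mybpc1 went the other way, from 7.79% at 0 to 0% at 10 or more. Median depth before thinning was highest in the class of 10 or more tdTomato UMIs, at 34497 UMIs in control and 26670 in gof, against 12588 and 13396 in cells with 0.

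**Figure D4:**
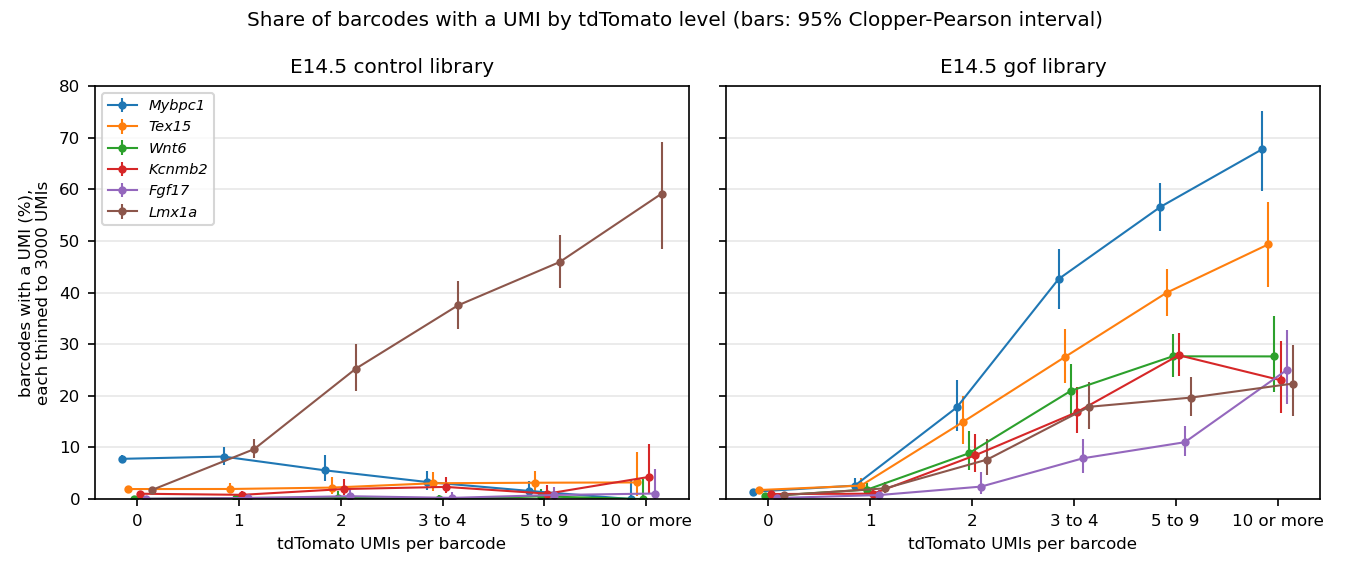
Share of E14.5 barcodes with a UMI of 6 genes, in classes by tdTomato UMIs, each barcode thinned to 3000 UMIs, with exact 95% Clopper-Pearson intervals as bars; control on the left and gof on the right. Mybpc1 reached 67.8% in the gof class of 10 or more tdTomato UMIs, and Lmx1a was the gene of the 6 with the highest share in that class of the control library.

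Regulators of position along the body axis were among the genes with no UMIs in control labelled cells of E14.5. These genes were looked for after their values were seen. Of all features, 15 had 0 UMIs in control labelled cells and at least 50 in gof, and 1, Tmem72, had 332 in control and 0 in gof, which is at least 109-fold lower by the floor of 3 counts over the group. Cdx1, a homeobox gene of the posterior embryo, had 268 UMIs in 111 gof cells, at least 90.5-fold higher by that floor. Its relative Cdx2 had 71, at least 24.0-fold higher. Hoxb2 and Hoxb3, which pattern the hindbrain, had 201 and 93 UMIs, at least 67.9-fold and 31.4-fold higher. Their neighbour Hoxb1 had 1 control UMI and 636 gof UMIs, a ratio of CPM of 644 with an exact interval of 115 to 25493. Hoxb3, Hoxb2 and Hoxb1 lie in a row on chromosome 11 (GRCm38), from 96323326 to 96368256. No other of the 39 Hox features reached 50 UMIs in gof; Hoxb9 had 58 in control and 42 in gof. Olig3 and Nkx6-1, progenitor factors of the hindbrain and spinal cord, had 181 and 117 gof UMIs, and Hmx3 and Mixl1, homeobox genes of the ear and nervous system and of the early mesendoderm, had 63 and 55. The rest of the 15 were Banf2, Pla2g2f, Ccl12 (88 UMIs in 4 cells), Mymx, Methig1, Gm8113 and Slc30a2. Banf2 and Gm8113 had 0 control UMIs in tdTomato-0 cells too, against 114 and 128 in gof, so their difference was not limited to labelled cells. Of the 15, 5 had UMIs in E11.5 control labelled cells and 9 in E14.5 tdTomato-0 control cells: Olig3 had 63 control and 40 gof UMIs in labelled cells of E11.5, and Nkx6-1 had 5 and 11. The E11.5 labelled cells summed to 11460608 UMIs in control and only 4596631 in gof, so these unscaled counts do not give a direction.

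Hoxb1 and Cdx1 differed in the side on which they were read. Hoxb1 was read in 158 gof cells, of which 92.4% were on the neuron side. Cdx1 was read in 111, of which 32.4% were on the neuron side. Of the Hoxb1 cells 6.33% also had a Cdx1 UMI, against 9.56% of all gof labelled cells. Mybpc1 was found in 99.4% of the Hoxb1 cells and 86.5% of the Cdx1 cells, against 57.6% of all gof labelled cells. Median depth was 15176 UMIs in Hoxb1 cells and 17760 in Cdx1 cells, and 13.3% and 9.01% of them were among the highest doublet scores, against 10.2% of all. These shares are unthinned. At E11.5, Hoxb1 had 2 control and 23 gof UMIs in labelled cells, 0.175 and 5.00 CPM, and Cdx1 had 0 and 2 UMIs.

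Among 185 genes of transcription factor families read, 27 were higher and 35 lower, beside 6.37% and 15.2% of all genes, with a median log2 ratio of -0.04 beside -0.12. The 6 highest were Hoxb1, Runx2, Runx1, Ascl4, Pax3 and Sox21. Runx2, the regulator of bone-forming cells, stood at 12.6 CPM (11.2 to 14.03) in the control library against 90.1 CPM (86.4 to 93.9) in the gof one, 2.75, and was also higher at E11.5 (2.80) but under 10 CPM in tdTomato-0 cells. Its relative Runx1, known from blood cells and sensory neurons, stood at 6.16 and 44.6 CPM. Pax3, a gene of the dorsal neural tube and neural crest, stood at 2.12 and 16.7 CPM, with 4.62 on the neuron side and 1.16 outside it. Sox21 stood at 8.76 and 42.1 CPM and was the only one of the 6 that was called in tdTomato-0 cells too (1.03). The 6 lowest were Tfap2b, Foxj1, Lhx9, Nr4a3, Zbtb20 and Bhlhe22. Zbtb20, a factor of the hippocampal field, was the most abundant of them, at 1644 CPM (1628 to 1659.5) in the control library against 481 CPM (473 to 490.0) in the gof one, and its ratio of -1.77 stood beside -2.09 in tdTomato-0 cells. Lhx9, a factor of the medial pallium and diencephalon, was lower in both as well, -2.06 and -1.47. Bhlhe22, a factor of neurons, stood at 116 and 39.9 CPM.

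Most genes of motile cilia were lower in gof. Of 29 read, 27 were lower and 0 higher, beside 15.2% of all genes, and their median log2 ratio was -2.23. Mcidas and Ccno, which start the multiciliated program, stood at 33.6 and 2.19 CPM and 26.9 and 1.91 CPM, -3.44 and -3.26. Foxj1, the main factor of motile ciliogenesis, stood at 68.1 CPM (64.9 to 71.5) in the control library against 13.9 CPM (12.5 to 15.5) in the gof one. Of the 15 lowest genes of at least 50 CPM, Cfap47, Lrriq1, Spag6l and Dynlrb2 are ciliary genes or relatives of them: Cfap47 stood at 55.4 and 5.39 CPM, Spag6l at 56.0 and 8.07 CPM and Dynlrb2 at 60.02 and 8.64 CPM. Of 6 axonemal dynein heavy chain genes (Dnah), 6 were lower, and of 23 Cfap genes 19 were. In tdTomato-0 cells the list's median was -0.65, but 2 of its genes reached 10 CPM and 0 were called. At E11.5 the median was -0.33, with 7 of 11 lower beside 5.62% of all genes there. The strictly marked choroid and Cajal-Retzius cells, in which both Trp73 and ciliary genes are known to be active, were 44.2% of control and 8.27% of gof labelled cells. Without those cells only 11 genes of the list reached 10 CPM, of which 5 were lower (median -0.43), beside 1291 of 10004 genes. Mcidas, Ccno, Cfap47, Cdc20b, Dynlrb2 and Spag6l all fell short of 10 CPM. Foxj1 was still lower, at 11.9 and 5.39 CPM.

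The other genes of the lowest 15 belonged to several families. Without the strictly marked cells 11 of the 15 were still called lower and the 4 others, Cfap47, Cdc20b, Dynlrb2 and Spag6l, stayed under 10 CPM; the median log2 ratio of the 15 was -1.35. Agbl4, Slc6a15, Tmem158, Ripor2, Lrriq1 and Palmd had ratios nearer to 0 without those cells, at -1.15, -1.52, -1.35, -1.13, -1.35 and -2.21. Grb14, Htra1, Pygl, Lrp1b and Dkk3 had ratios further from it, at -3.86, -3.25, -3.30, -3.03 and -2.92. Lrp1b, a large endocytic receptor, was the most abundant, at 1465 CPM (1449.6 to 1479.7) in the control library against 252 CPM (246 to 259) in the gof one, with -3.27 outside the neuron side and -1.03 on it. Agbl4, an enzyme that trims glutamate side chains from tubulin, stood at 343 and 56.0 CPM. Slc6a15, an amino acid transporter, stood at 232 and 33.6 CPM and was also lower at E11.5 (-1.03). Tmem158 stood at 167 and 22.4 CPM, Ripor2 at 66.8 and 7.26 CPM and Palmd at 77.8 and 10.5 CPM, and the log2 ratio of each was further below 0 on the neuron side (-3.32, -3.45 and -3.29) than outside it (-1.38, -0.79 and -1.89). Grb14, an adaptor of receptor tyrosine kinases, stood at 59.4 and 5.27 CPM, Pygl, liver glycogen phosphorylase, at 63.8 and 8.15 CPM, and Dkk3, a secreted protein of the Dickkopf family, at 81.1 and 13.8 CPM. Htra1, a secreted protease, stood at 123 and 18.9 CPM and was lower in tdTomato-0 cells too (-3.85), and at E11.5 it was under 10 CPM in both libraries. Pid1, Ednrb, Tmem163 and Ldb2 were lower in labelled cells and not in tdTomato-0 cells, where the log2 ratios were 0.51, 0.70, 0.40 and 0.60 beside -2.30, -1.87, -1.96 and -1.75. The endothelin receptor gene Ednrb is on the list of progenitor and radial glial genes. Of 19 genes of that list read, 4 were higher and 3 lower (median 0.15), beside 6.37% and 15.2% of all genes. Tmem163 did not keep its direction without the strictly marked cells (0.37) or outside the neuron side (0.72).

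**Figure D5:**
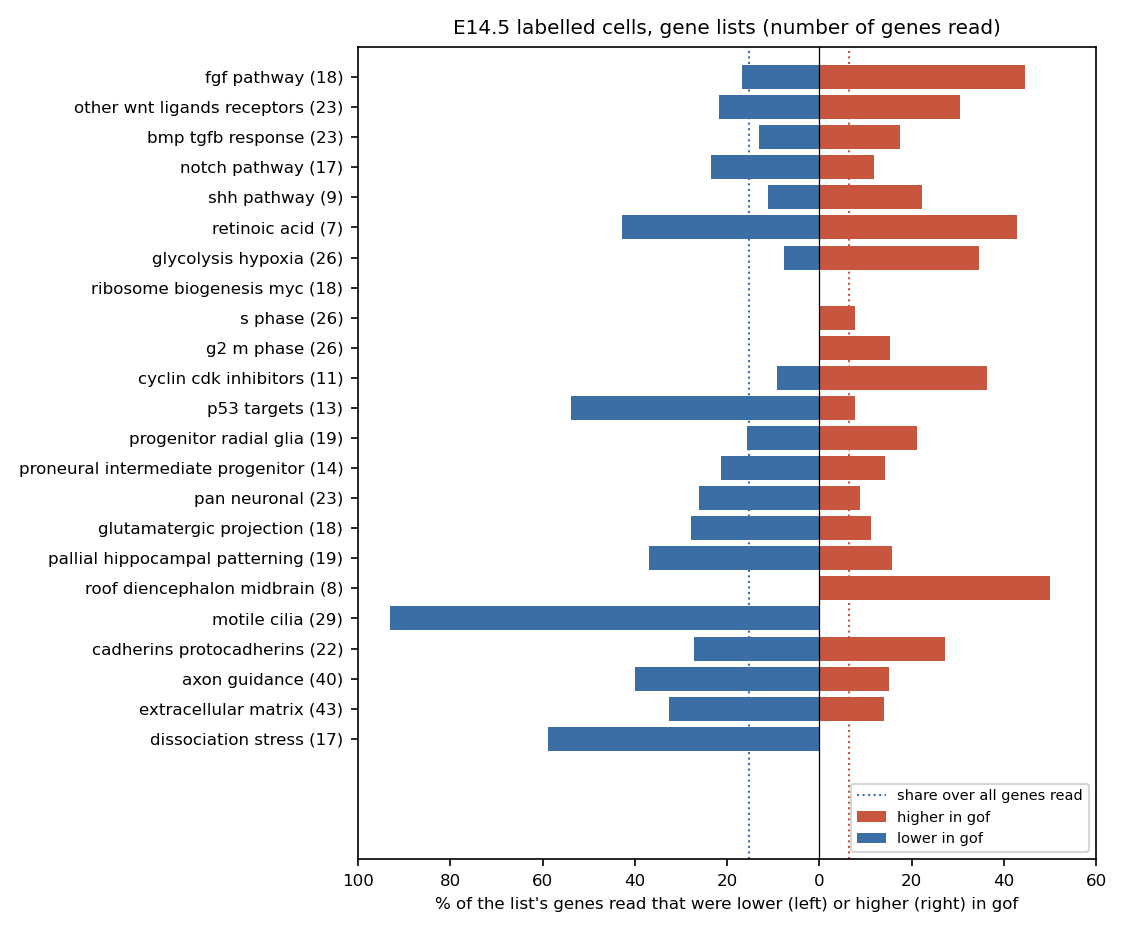
Share of the genes read of each list that were lower (left, blue) or higher (right, red) in gof in E14.5 labelled cells, with the number of genes read in parentheses and the shares over all genes read as dotted lines (15.2% lower, 6.37% higher). The motile cilia list had 27 of 29 genes lower, and the FGF list 8 of 18 higher.

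Ligands beyond the core Wnt response were mixed. Over all genes read, 6.37% were higher and 15.2% lower, and the counts below stand beside these shares. In the FGF list 8 of 18 genes read were higher and 3 lower (median 0.19). Fgf10, a ligand, stood at 0.8003 and 10.9 CPM beside Fgf17, and the lower genes included Fgf14, an intracellular FGF-like channel partner, at 215 and 100.4 CPM, and the phosphatase gene Dusp4 at 34.6 and 17.4 CPM. In the list of Wnt ligands and receptors outside the core response 7 of 23 were higher and 5 lower. Wnt16 had 3 control UMIs and 263 gof UMIs, a CPM ratio of 88.8 with an exact interval of 30.1 to 434. Wnt7b, a ligand of cortical neurons, was lower at 67.8 and 29.1 CPM. In the BMP and TGF-beta list 4 of 23 were higher and 3 lower: Fst, follistatin, an antagonist of activins, stood at 19.6 and 127 CPM and the ligand Tgfb2 at 50.7 and 116 CPM, while the target genes Id3 and Id1 stood at 523 and 301 CPM and 144 and 82.9 CPM. Fst and Tgfb2 were lower in tdTomato-0 cells (-1.08 and -0.66). Of 9 Hedgehog pathway genes 2 were higher and 1 lower. Of 7 retinoic acid genes read 3 were higher and 3 lower, with the retinol dehydrogenase Rdh10 at 30.8 and 139.6 CPM and the retinol-uptake receptor Stra6 at 10.8 and 41.5 CPM (a log2 ratio of 3.39 in place of 1.84 without the strictly marked cells) against the retinol carrier Rbp4 at 13.8 and 3.12 CPM.

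A stretch of chromosome 1 (GRCm38) held Wnt6 and Cryba2, 104612 bases apart, and was looked at after their values were seen. Of 8 features in the interval with 50000 bases on each side, 4 were read: Wnt6, Wnt10a and Cryba2 were higher and Cfap65, a ciliary gene, was lower, with 275 control and 26 gof UMIs. The window was set by Wnt6 and Cryba2 themselves, and among all genes read 6.37% were higher and 15.2% lower. Wnt10a, the ligand gene next to Wnt6, had 250 control and 528 gof UMIs, a log2 ratio of 1.03. Fev, a factor of serotonergic neurons, had 0 control and 45 gof UMIs.

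In the list of glycolysis and hypoxia genes 9 of 26 were higher and 2 lower (median 0.48), with the lactate exporter Slc16a3 at 1.84 and 10.1 CPM and hexokinase 2 (Hk2) at 15.8 and 41.7 CPM, while Hk1 stood at 21.3 and 13.8 CPM. That median was -0.04 in tdTomato-0 cells and at E11.5. Without the strictly marked choroid and Cajal-Retzius cells 1 of 25 was higher and 4 lower, beside 667 and 1291 of 10004 genes. Counts over all labelled cells in this paragraph stand beside 6.37% of all genes higher and 15.2% lower. Of 46 genes of mitochondrial complex I read, 0 were called in either direction, and so were 0 of 18 ribosome biogenesis genes. Of 26 S phase and 26 G2/M genes, 2 and 4 were higher and 0 and 0 lower; on the neuron side 13 of the 26 G2/M genes were higher (median 0.60), beside 8.58% of all genes on that side, and without the strictly marked cells 0 of 26 were called. Of 11 cyclins and inhibitors 4 were higher and 1 lower: the inhibitor gene Cdkn1a stood at 213 CPM (208 to 219) in the control library against 570.5 CPM (561 to 580.0) in the gof one and the cyclin gene Ccnd2 at 293 and 757 CPM, while the inhibitor gene Cdkn1b was lower at 119.6 and 53.1 CPM. Cdkn1a stood at 17.0 and 584 CPM without the strictly marked cells, a log2 ratio of 5.02 in place of 1.42. Among p53 target genes 7 of 13 were lower and 1, the BH3-only gene Pmaip1, was higher at 3.08 and 35.2 CPM. Cdkn1a was counted with the cyclins and inhibitors and is not on this list. Trp53inp1 and Eda2r stood at 66.5 and 22.7 CPM and 10.6 and 2.39 CPM. Without the strictly marked cells 1 of 11 p53 target genes was lower, beside 1291 of 10004 genes.

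Neuronal genes separated into both directions, and the counts that follow stand beside 6.37% of all genes higher and 15.2% lower. Of 23 pan-neuronal genes 2 were higher and 6 lower: the tubulin gene Tubb3 stood at 636 CPM (626 to 646) in the control library against 1133 CPM (1119.9 to 1147) in the gof one and Scg3 at 68.9 and 109 CPM, while the growth-cone gene Gap43 stood at 232 and 115 CPM and Elavl4 at 239 and 136 CPM. Of 18 glutamatergic genes 2 were higher and 5 lower, with Tbr1, a deep-layer factor, at 88.0 and 22.3 CPM and the vesicular glutamate transporter Slc17a6 at 124 and 35.4 CPM. Elavl4 was not called without the strictly marked cells, at 178 and 138 CPM, and the log2 ratios of Tbr1 and Slc17a6 were -0.84 and -1.01 in place of -1.93 and -1.78. Gad1, the enzyme that makes GABA, was higher at 1.28 CPM (0.876 to 1.81) in the control library against 29.8 CPM (27.7 to 32.0) in the gof one, with 5.17 on the neuron side and with 0.436 and 9.35 CPM at E11.5. Of 331 gof cells with a Gad1 UMI, 92.7% also had a Mybpc1 UMI and 30.2% a Hoxb1 UMI, unthinned. Of 14 proneural and intermediate progenitor genes 2 were higher and 3 lower, with Insm1 at 35.1 and 98.0 CPM against Eomes at 131 and 65.7 CPM. Of 22 sodium and calcium channel genes (Scn and Cacn) 11 were lower and 1 higher, and of 33 potassium channel genes (Kcn) 12 were lower and 8 higher, families chosen after their values were seen.

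Adhesion and guidance genes also went both ways, and their counts stand beside 6.37% of all genes higher and 15.2% lower. Of 40 axon guidance genes 16 were lower and 6 higher (median -0.53). Ntn1, netrin-1, stood at 21.8 and 1.22 CPM, -3.36, and Sema3c at 54.3 and 10.8 CPM, while the Slit receptor Robo1 was higher at 294 CPM (288 to 301) in the control library against 701 CPM (690.4 to 711) in the gof one and Sema3a at 10.3 and 26.9 CPM. Of 43 extracellular matrix genes 14 were lower and 6 higher, with the basement membrane gene Fbln1 at 32.0 and 145 CPM and Col23a1 at 27.8 and 115 CPM against Col12a1 at 15.7 and 3.69 CPM. The log2 ratio of Col23a1 was 3.37 without the strictly marked cells and 2.01 with them. The matrix glycoprotein gene Tnc stood at 35.6 and 4.95 CPM. It is on the list of progenitor and radial glial genes, of which 4 of 19 read were higher and 3 lower. Of 22 cadherins 6 were higher and 6 lower, with Cdh22 at 3.04 and 43.3 CPM and Cdh6 at 16.1 and 53.9 CPM against Pcdh7 at 297 and 127 CPM. Without the strictly marked cells the counts were 4 and 3 of 20, beside 667 and 1291 of 10004 genes. Of 8 genes of roof plate, diencephalon and midbrain read, 4 were higher and 0 lower; Zic4 stood at 99.3 and 298 CPM, with 3.07 on the neuron side. The metallothionein gene Mt3, on the same list as Tnc, was higher at 123 and 351 CPM and lower in tdTomato-0 cells (-1.64). The imprinted gene Nnat was lower at 1899 and 620.2 CPM, with -0.07 in tdTomato-0 cells and -0.76 in place of -1.61 without the strictly marked cells.

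Lists that track handling and other cells moved too, beside 6.37% of all genes higher and 15.2% lower. Of 17 genes of the response to dissociation 10 were lower in gof and 0 higher, with Fos at 276 and 65.9 CPM and Hspa1a at 27.7 and 4.46 CPM; the median was -0.82 in labelled, -0.45 in tdTomato-0 cells and 0.22 at E11.5. Of 6 mesenchymal genes read 4 were higher, with a median of 1.03 beside 1.18 in tdTomato-0 cells, and Col3a1 stood at 4.96 and 25.1 CPM. Non-neural barcodes were 0.953% of control and 1.29% of gof labelled cells, and without them 653 genes were higher and 1563 lower. Of 5 erythroid genes read 3 were higher. On the neuron side 4 were lower (median -2.10), beside 15% of all genes there. Outside it 4 were higher (median 2.92), beside 6.24%. The part of handling or of these other cells in the differences above was not tested.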

How the data were processed

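Deposited values are unnormalised UMI counts of genes by barcodes, 1 matrix a library. Per the submitters' processing notes Cell Ranger 7.1.0 and the build mm10 were used; the file headers name the same Cell Ranger version. No annotation release is named in the sources used here. The members and gene lists were chosen with earlier results of these data known.

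Counts were summed over the labelled barcodes of a library and scaled to CPM, and log2 ratios of gof over control used a pseudocount of 1 CPM. In each set of cells, genes that reached 10 CPM there on either side were read and called at 1.5-fold with separate exact 95% Poisson intervals. The rule was run on simulated counts with Poisson error only. These held no variation between cells, embryos or libraries, so they do not show how often 2 real pools give false calls. With 1 library a side no test was made. Named genes are, among those of at least 50 CPM and without core Wnt, hem, choroid and Cajal-Retzius markers and haemoglobin, mitochondrial, ribosomal, Y-linked, histone and clone-named features, the 15 highest and 15 lowest ratios and the 6 highest and 6 lowest differences from the tdTomato-0 ratio; at 10 CPM, they add the 6 highest and 6 lowest transcription factor symbols, matched by family prefixes, and from each list its 2 highest and its 2 lowest genes. Genes with 0 control UMIs, Hox and other gene families, and the Wnt6 neighbourhood were chosen after their values were seen.

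Shares of cells with a UMI used barcodes thinned to 3000 UMIs, which left out 3 control and 7 gof labelled barcodes. Gene positions are from GENCODE M21 (GRCm38), which matched 21817 of 21937 features by ID. Doublets were not removed; Scrublet (scanpy 1.11.5, Python 3.11.15) called 2 control and 401 gof barcodes at its own threshold, so it did not work for the control, and an alternative removed the highest scores at 0.8% per 1000 barcodes. Ambient RNA was not removed. Xist was not analysed here, and some genes that the naming rule takes are not reported here.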

Additional observations from a re-analysis of the deposited data

Results flagged for a closer look

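In several genes the call in labelled cells at E14.5 was opposite to that in tdTomato-0 cells; none of these differences was itself tested, and both sets come from the same libraries. In tdTomato-0 cells Mybpc1 had a log2 ratio of -1.86, Fst of -1.08, Tgfb2 of -0.66 and Mt3 of -1.64, and all of these were higher in labelled cells. Ednrb and Ldb2 had 0.70 and 0.60 in tdTomato-0 cells and were lower in labelled cells.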

How the results depend on the processing

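The counts of 650 higher and 1551 lower genes stayed within 1.5 times of themselves under 11 of the 15 alternatives. With a pseudocount of 10 CPM 933 genes were lower. At 50 CPM or more in either library 306 genes were higher and 579 lower, and with no filter on low values 1157 and 2388, since these settings read 4617 and 17877 genes. Without the choroid and Cajal-Retzius gates, which leave 262 control and 330 gof cells, 422 genes were higher. Of 94 genes followed by name, 29 kept their direction without those gates but were no longer called. That number was 14 outside the neuron side, 6 on it and 9 without the strictly marked cells. Without the choroid and Cajal-Retzius gates the log2 ratios of Cdc20b, Ednrb, Tmem163, Scg3 and Eomes changed sign, to 0.56, 1.01, 1.68, -0.40 and 0.15. Outside the neuron side those of Tmem163, Bhlhe22 and Gap43 did, to 0.72, 0.44 and 0.75, and on the neuron side that of Id1, to 0.25. Without the strictly marked choroid and Cajal-Retzius cells, an alternative chosen after the data were seen, Tmem163 went to 0.37. The causes were not tested. No paired analysis was possible because each group holds 1 library. With 1 pool a side, variation between embryos is unknown. Counting error is widest for genes of a few UMIs, and shares of cells with a UMI differed between thinned and unthinned barcodes for abundant genes too.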
